A study of Mus musculus with 4 samples.

Results

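Mitosis and G2 phase genes are the genes whose products carry a cell that has copied its DNA through the separation of its chromosomes and the division of its body. A list of 60 gene symbols defined the set, and a gene entered when the annotation of the array assigned a row of the table to it alone. That held for 59 of the 60, with 60 rows, out of 19935 genes that could be named in the same way. Ccnb1, the gene of cyclin B1, was not analysed here, and Sgol1 was found under its present symbol Sgo1.

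The RNA came from stem cells of the hair follicle bulge, sorted by their joint expression of CD34 and alpha6 integrin from the skin of male CD-1 mice. The animals were 56 days old (P56), when hair follicles rest in their second telogen. The CSA group had received 100 mg/kg CSA, and the vehicle group the vehicle, both into the peritoneum over 3 days before the skin was taken. The labels leave CSA unexpanded; in studies of calcineurin, which the series title names together with Nfatc1 and stem cell quiescence, it means cyclosporine A, an inhibitor of that phosphatase. Each group had 2 samples, called biological replicates by the submitters, with no statement of the number of mice behind each or of pooling.

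A cell enters mitosis when cyclin B bound to Cdk1 is switched on by Cdc25 phosphatases. It leaves mitosis when the anaphase promoting complex, helped by Cdc20 and the ubiquitin-conjugating enzyme Ube2c, has cyclins and securin destroyed. In resting cells most of these genes are kept silent together by complexes built on MuvB proteins, and in cycling cells B-Myb (Mybl2) and Foxm1 turn them on. Bulge stem cells divide rarely in telogen, and the level of these transcripts in a sorted population is often read as a sign of how many cells are cycling. In sorted bulk samples such as these, fewer dividing cells and less RNA per dividing cell cannot be told apart.

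Much of this joint control runs through short elements near the start of transcription. The cell cycle genes homology region (CHR), with the core TTTGAA, is the element that MuvB complexes bind through their subunit Lin54, and the CCAAT box is bound by NF-Y. RefSeq promoters of build GRCm38.p6, from 250 bases before to 50 after the start, were found for 50 of the 59 genes, with 55 starts. A few of them are printed to show the elements beside the array results given further on: Fam83d, with the widest difference between the groups, Ncapg, the other gene 1.5-fold lower under every setting of the arrays that kept it, Mki67, the usual marker of proliferation, Prc1, the gene farthest below the baseline, and Pttg1, the gene that stood higher in CSA. Capitals mark TTTGAA or its reverse complement TTCAAA, and CCAAT or its reverse complement ATTGG. The windows are chr2:158767849-158768148, + strand (Fam83d), chr5:45669675-45669974, + strand (Ncapg), chr7:135716330-135716629, - strand (Mki67), chr7:80294201-80294500, + strand (Prc1, 1 of its 2 listed starts) and chr11:43425932-43426231, - strand (Pttg1), each written 5′ to 3′ along the gene.
Fam83d: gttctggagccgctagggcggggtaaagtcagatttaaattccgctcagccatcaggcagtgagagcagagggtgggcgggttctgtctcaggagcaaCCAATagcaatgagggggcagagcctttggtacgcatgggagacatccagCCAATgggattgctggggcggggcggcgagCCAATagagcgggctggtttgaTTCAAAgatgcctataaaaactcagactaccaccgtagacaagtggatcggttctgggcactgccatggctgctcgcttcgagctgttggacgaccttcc
Ncapg: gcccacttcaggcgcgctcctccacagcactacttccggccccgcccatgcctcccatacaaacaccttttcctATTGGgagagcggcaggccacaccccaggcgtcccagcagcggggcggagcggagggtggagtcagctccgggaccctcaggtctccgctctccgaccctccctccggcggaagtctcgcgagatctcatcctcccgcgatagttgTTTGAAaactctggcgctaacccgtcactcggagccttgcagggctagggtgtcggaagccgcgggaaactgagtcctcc
Mki67: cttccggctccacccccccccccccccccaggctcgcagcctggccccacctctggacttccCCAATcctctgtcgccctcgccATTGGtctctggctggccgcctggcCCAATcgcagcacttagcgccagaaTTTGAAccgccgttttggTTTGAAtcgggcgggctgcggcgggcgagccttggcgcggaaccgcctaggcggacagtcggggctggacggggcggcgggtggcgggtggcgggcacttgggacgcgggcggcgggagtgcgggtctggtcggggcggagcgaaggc
Prc1: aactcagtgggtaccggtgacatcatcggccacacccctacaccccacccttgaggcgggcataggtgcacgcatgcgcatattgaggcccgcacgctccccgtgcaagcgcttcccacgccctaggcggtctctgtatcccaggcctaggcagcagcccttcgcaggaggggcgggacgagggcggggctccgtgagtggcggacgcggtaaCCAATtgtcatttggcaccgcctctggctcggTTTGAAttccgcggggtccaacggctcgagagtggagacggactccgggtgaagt
Pttg1: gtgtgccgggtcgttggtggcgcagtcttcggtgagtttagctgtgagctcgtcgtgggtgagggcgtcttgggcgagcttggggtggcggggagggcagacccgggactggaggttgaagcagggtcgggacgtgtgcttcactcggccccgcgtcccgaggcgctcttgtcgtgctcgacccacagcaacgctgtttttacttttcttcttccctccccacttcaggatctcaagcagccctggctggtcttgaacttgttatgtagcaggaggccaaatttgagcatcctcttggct

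TTTGAA lay on either strand in 36 of the 55 promoters of the set (65.5%), against 2836 of 19114 promoters of all genes with a value (14.8%). It began within 50 bases of the start in 32 of the 55 (58.2%), against 3.78% of all promoters. CCAAT lay on either strand in 40 of the 55 (72.7%), against 37.4% of all, and both elements in 31 of the 55 (56.4%), against 5.85% of all. In Prc1 and Ncapg the TTTGAA sits shortly before the start, in Mki67 a pair of them lies farther upstream beside 3 CCAAT boxes of either orientation, and in Fam83d the TTTGAA follows a run of 3 CCAAT boxes. In the window of Pttg1 neither set of letters occurs. Of the matches in the set's promoters, 2 pairs overlap one another. These are matches of letters and not measured binding.

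**Figure D1:**
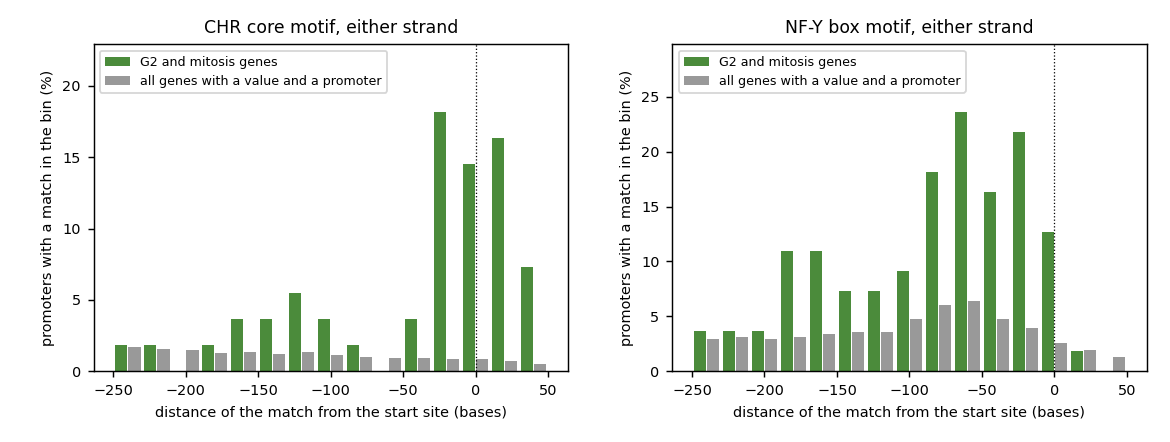
Share of promoters with a match (y axis, percent) in bins of 20 bases by distance from the start site (x axis, bases), for the CHR core motif (left) and the NF-Y box motif (right), either strand, with the 55 promoters of G2 and mitosis genes in green and 19114 promoters of all genes in grey. CHR matches of the set lie mainly within 50 bases of the start, and the NF-Y boxes mainly upstream of it.

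Each value below is a log value, taken as log2, relative to a baseline that the authors subtracted from every row. That baseline is neither the mean nor the median of the 4 arrays and is not identified in the sources used here, so a value of 0 means a level equal to the baseline and says nothing of abundance. The small number of arrays, 4 with 2 per group, limits the precision of everything that follows. Array medians over all rows lay between -0.02 and 0.06. Across the 28815 rows, which are not independent replicates, Pearson's r was 0.516 between CSA replicate 2 and vehicle replicate 2, and between 0.02 and 0.168 for the other pairs of arrays. Cd34, a marker of the sort, stood far above the baseline at 1.75 and 3.60 under CSA, against 4.05 and 4.25 under vehicle. Krt15, a bulge keratin, was just above it on all 4 arrays. Itga6, which encodes the alpha6 integrin, stood at -0.70 and -0.53 under CSA, against -1.0 and 0.08 under vehicle. Taken against an unidentified baseline, such values do not measure the purity of the sort. Of 12 bulge markers 10 were above the baseline on all 4 arrays, against 4.10% of all genes. Their median difference between CSA and vehicle was -0.24, and Cd34, Cd200 and Postn were at least 1.5-fold lower in CSA without overlap (3 of 12, against 1.99% of all genes), with differences of -1.47 ± 0.67, -0.80 ± 0.35 and -0.79 ± 0.18 (± is the moderated SE of limma, n = 2 per group, here and below; adjusted p = 0.999 each). CSA replicate 1 was the lowest array for 8 of the 12 (66.7%, against 22.7% of all genes).

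The mitosis and G2 genes stood below the baseline in both groups. On all 4 arrays 17 of the 59 genes were below it, or 28.8%, where 3.35% of all genes were. Not 1 of the 59 was above it on all 4 arrays, against 4.10% of all genes. By the mean over the 4 arrays, 52 of the 59 lay below the 25th percentile of all genes. On the single arrays 54 and 53 of the 59 were below 0 in CSA (91.5% and 89.8%, against 46.8% and 56.1% of all genes) and 40 and 40 in vehicle (67.8% on both, against 36.5% and 57.5%). The medians of the set were -0.25 and -0.24 in CSA, against -0.11 and -0.15 in vehicle. With each array centred on its own median the count below the baseline on all arrays was 22.

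**Figure D2:**
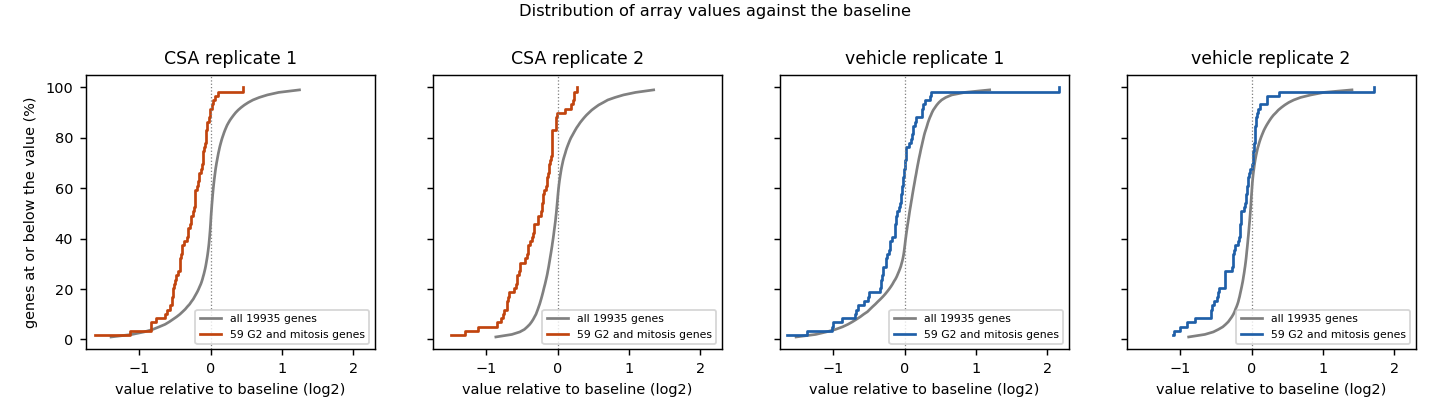
Cumulative share of genes (y axis, percent) at or below each array value (x axis, log2 relative to the baseline), 1 panel per array, for the 59 G2 and mitosis genes (coloured steps) and all 19935 genes (grey, 1st to 99th percentile). The coloured steps lie to the left of the grey curve over most of each panel, and on the vehicle arrays the step at the far right is Fam83d.

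The baseline itself is not a fixed outside standard for every gene. In 17 of the 59 genes (28.8%, against 18.1% of all genes) a pair of arrays mirrored one another around 0 within 2e-06, so that the baseline lay midway between these arrays. Ect2 was such a gene, with its vehicle arrays at -0.06 and 0.06. None of these 17 was among the 17 below the baseline on every array, since 1 array of such a pair is at or above 0. The count below 0 on the remaining 3 arrays was 20 without CSA replicate 1, 21 without CSA replicate 2, 31 without vehicle replicate 1 and 32 without vehicle replicate 2, or 33.9%, 35.6%, 52.5% and 54.2% of the set, against 7.75%, 8.40%, 11.9% and 6.58% of all genes in the same order.

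Prc1, which bundles the microtubules of the central spindle, lay farthest below, at -0.83 and -1.50 on the CSA arrays, against -0.26 and -1.08 on the vehicle arrays. Anln, the anillin scaffold of the contractile ring, followed at -0.77 and -1.29 on the CSA arrays, against -0.49 and -0.90 on the vehicle arrays. In both genes the CSA and vehicle arrays overlapped, with replicate 1 of each group nearer to 0 than replicate 2. Smc2, the core subunit of both condensins, was the third lowest by its mean, but only through replicate 1, at -1.62 and -0.12 under CSA, against -1.64 and 0.12 under vehicle. At the other end Fam83d, Top2a and Cdc25b had the highest means over the 4 arrays, Top2a only by the row with the higher mean, since its other row was below 0 on every array.

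Between the groups, limma called none of the 59 genes at an adjusted p under 0.05, as it called 0% of all 19935 genes (smallest adjusted p = 0.999, which is also that of every gene of the set). At an unadjusted p under 0.05 limma gave 4 of the 59, of which Fam83d, Ncapg and Ect2 were lower in CSA and Pttg1 higher. Over all genes the same cut gave 1.00% lower and 1.83% higher. An exact permutation test of 1 gene with 2 arrays against 2 cannot give a two-sided p under 0.333. The counts below are therefore descriptions, given beside the same count over all genes.

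Mean levels were lower in CSA than in vehicle for 41 of the 59 genes (69.5%), against 58.9% of all genes. The median difference of the set was -0.13, with an interquartile range of -0.30 to 0.06, and the median over all genes was -0.04. Both CSA arrays lay below both vehicle arrays in 18 of the 59 (30.5%, against 15.4% of all genes) and above them in 4 (6.78%, against 10.9%). In the other 37 genes the groups overlapped, against 14693 of all 19935 genes. With means at least 1.5-fold apart as well, 4 genes were lower in CSA, namely Fam83d, Ncapg, Cdc25b and Cdc25c (6.78%, against 1.99% of all genes), and 1 gene, Pttg1, was higher (1.69%, against 3.91%). With arrays centred on their medians the split was 2 lower and 1 higher (3.39% and 1.69%, against 1.77% and 4.19% of all genes). Cdc25c was then no longer past 1.5-fold, at -0.56. Cdc25b still was, at -0.59, but its groups then overlapped. Cdc25c was the last gene inside that limit at -0.59 and Ect2 the first outside it at -0.51, among the genes whose groups did not overlap.

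Single arrays weighed on these counts. Without CSA replicate 1 there were 7 genes lower and 2 higher, without CSA replicate 2 there were 4 and 3, without vehicle replicate 1 there were 5 and 1, and without vehicle replicate 2 there were 7 and 4. The shares lower over all genes in the same order were 2.88%, 7.63%, 4.54% and 5.28%, and the shares higher 8.79%, 7.61%, 3.31% and 11.6%. Fam83d and Ncapg were among the lower genes and Pttg1 was the higher gene, or among the higher ones, in each of these 4 settings. Their groups did not overlap with all arrays kept, and leaving out 1 array cannot make them overlap. For these genes only the 1.5-fold limit could fail. The median difference of the set was -0.08 without vehicle replicate 1, where that of all genes was 0.01.

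Markers of differentiated epidermis mostly had lower means in CSA and their highest values on vehicle replicate 1. Of 16 such genes 13 were measured, and 12 of these had a lower mean in CSA, with a median difference of -0.77. Both CSA arrays were below both vehicle arrays with means 1.5-fold apart in 5 of the 13 (38.5%, against 1.99% of all genes), and limma called 0 (1 at an unadjusted p under 0.05). In 12 of the 13 the highest value was on vehicle replicate 1, and their median was -0.90 and -0.67 on the CSA arrays, against 0.47 and -0.47 on the vehicle arrays. Krt1, a keratin of the suprabasal layers, stood at -2.72 and -2.31 on the CSA arrays, against 0.10 and -2.15 on the vehicle arrays. The G2 and mitosis genes had their highest value on vehicle replicate 1 in 25 of 59 cases (42.4%, against 43.2% of all genes) and on vehicle replicate 2 in 17 (28.8%, against 15.2%). Their lowest value fell on CSA replicate 2 in 24 cases (40.7%, against 32.8%) and on CSA replicate 1 in 14 (23.7%, against 22.7%). Median differences were 0.15 for hair germ and matrix markers (10 measured), -0.22 for sebaceous gland (7), -0.10 for fibroblasts (8), -0.14 for endothelium (6), -0.02 for melanocytes (7) and -0.04 for immune cells (7). The part of other cells in the values of the set was not tested.

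**Figure D3:**
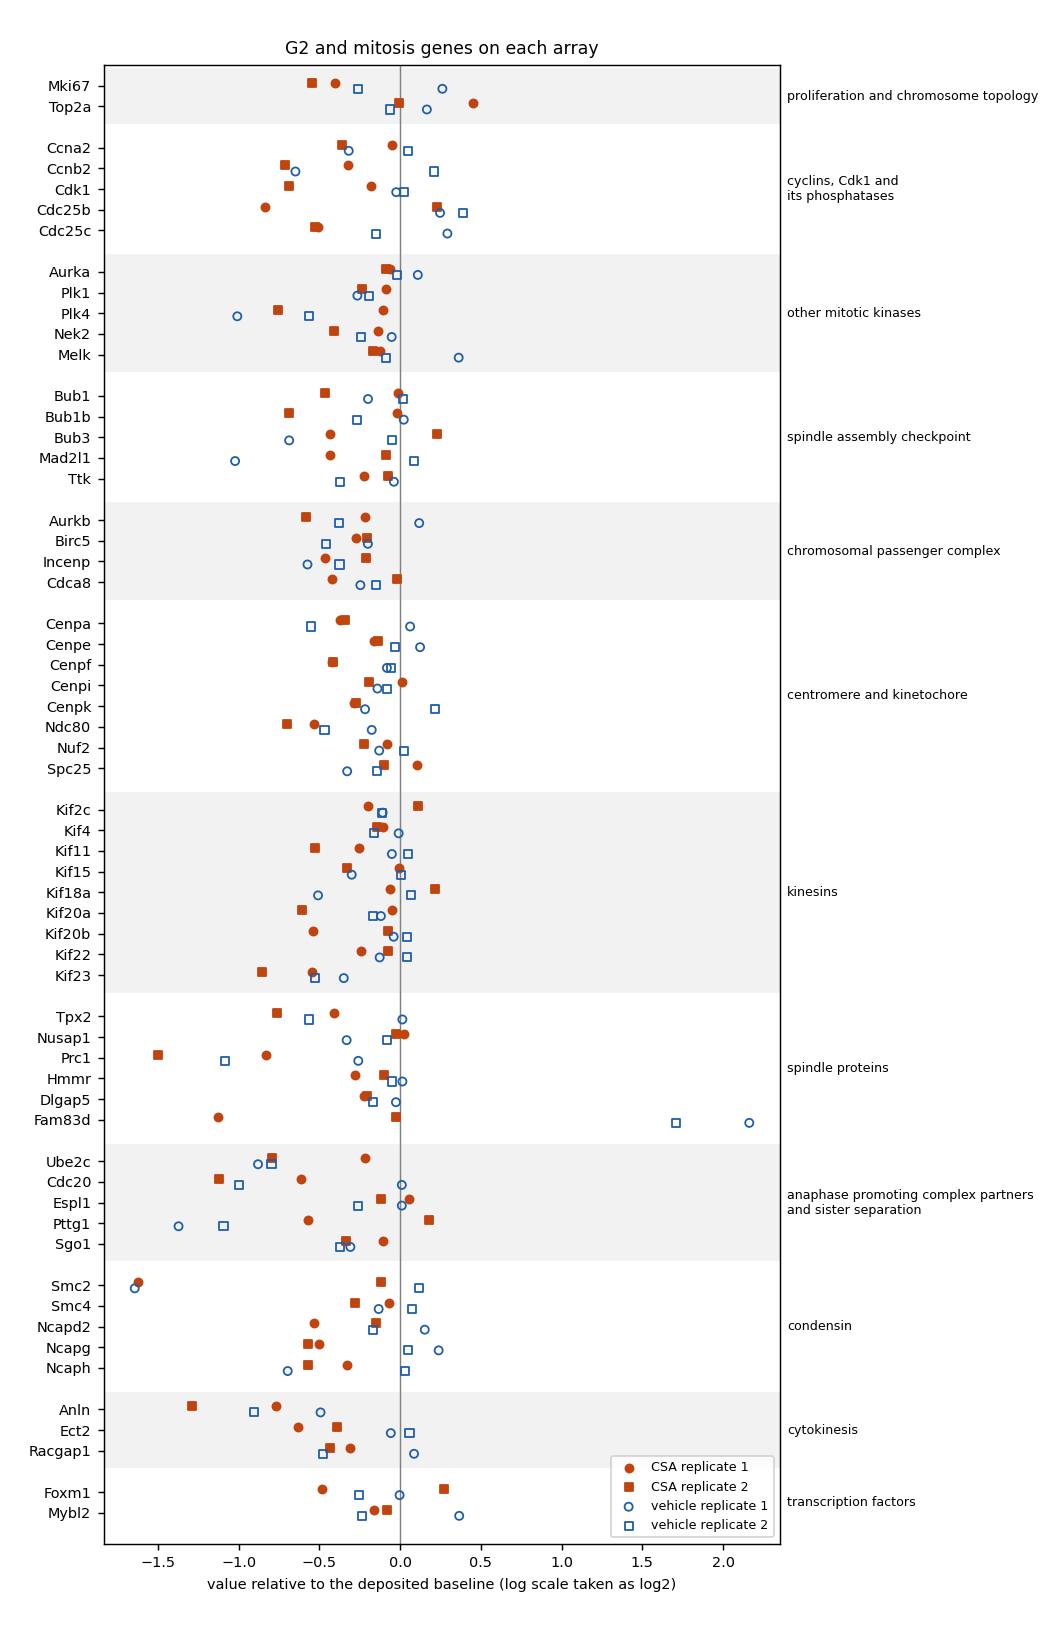
Value of each of the 59 G2 and mitosis genes on each array (x axis, log2 relative to the deposited baseline), grouped by role down the page, with CSA as filled red marks, vehicle as open blue marks, circles for replicate 1 and squares for replicate 2. Most marks lie left of 0, and Fam83d is the gene whose vehicle arrays stand far to the right.

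Fam83d, which brings the kinesin Kif22 and casein kinase 1 alpha to the mitotic spindle, had the widest difference of the set. It stood at -1.13 and -0.02 on the CSA arrays, against 2.16 and 1.71 on the vehicle arrays. Both vehicle arrays were far above the baseline and both CSA arrays below it, CSA replicate 2 only just. The difference was -2.51 ± 0.44, a 5.71-fold lower level in CSA if the scale is log2, with a 95% interval of -3.73 to -1.30. Only 0.03% of all genes lay at or below it in the ordering of differences. Leaving out 1 array at a time moved it between -3.06 and -1.96.

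The other spindle genes had smaller differences. Prc1 differed by -0.49 ± 0.40 with its groups overlapping, and by -0.08 without vehicle replicate 1. Tpx2, which starts microtubule growth near chromosomes, stood at -0.41 and -0.76 under CSA, against 0.01 and -0.57 under vehicle, so that only vehicle replicate 1 was apart. Hmmr, a microtubule-binding protein of the spindle poles, and Dlgap5, which stabilises kinetochore fibres, were lower in both CSA arrays than in both vehicle arrays, with differences of -0.17 ± 0.17 and -0.11 ± 0.16. Nusap1, which binds and bundles spindle microtubules, went the other way at 0.21 ± 0.18, also without overlap. Of the 6 genes of this group 5 had a lower mean in CSA.

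The genes that drive entry into mitosis had lower means in CSA in 5 of 5 cases, with a median difference of -0.43. Cdk1, the mitotic kinase, stood at -0.18 and -0.69 on the CSA arrays, against -0.02 and 0.02 on the vehicle arrays. The vehicle arrays mirrored one another around 0, so that the baseline lay midway between them. Both CSA arrays were below it, CSA replicate 2 by more. Its difference was -0.43 ± 0.23 (95% interval -1.08 to 0.21), and -0.18 without CSA replicate 2. Of the phosphatases that activate it, Cdc25b stood at -0.83 and 0.23 on the CSA arrays, against 0.25 and 0.39 on the vehicle arrays. CSA replicate 1 alone was far down, the other CSA array lay just below vehicle, and the difference of -0.62 ± 0.40 was -0.09 without CSA replicate 1.

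Cdc25c, the phosphatase of the same family that acts at the start of mitosis, had closer CSA arrays, at -0.51 and -0.53 under CSA, against 0.29 and -0.15 under vehicle. It differed by -0.59 ± 0.22 (95% interval -1.19 to 0.01), and by -0.37 without vehicle replicate 1. The mitotic cyclin genes overlapped between the groups. Ccnb2, of cyclin B2, stood at -0.32 and -0.71 under CSA, against -0.65 and 0.21 under vehicle, with CSA replicate 2 and vehicle replicate 1 both low. Ccna2, of the cyclin A that acts in S phase and G2, differed by -0.07 ± 0.23, and its sign turned without CSA replicate 2 (0.09) or vehicle replicate 2 (0.12).

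Mki67, the nuclear protein that coats mitotic chromosomes, stood at -0.40 and -0.55 on the CSA arrays, against 0.26 and -0.26 on the vehicle arrays. The CSA arrays lay closer together than the vehicle arrays, and the groups did not overlap. The difference was -0.48 ± 0.24 (95% interval -1.14 to 0.19), -0.21 without vehicle replicate 1 and -0.74 without vehicle replicate 2. Top2a, the topoisomerase that untangles sister chromatids, had 2 rows that disagreed. The row used in the fit, the one with the higher mean, stood at 0.45 and -0.01 on the CSA arrays, against 0.17 and -0.06 on the vehicle arrays, and differed by 0.17 ± 0.24. The other row stood at -1.13 and -1.30 on the CSA arrays, against -0.06 and -0.52 on the vehicle arrays, and differed by -0.93 ± 0.23 (limma over all rows, adjusted p = 0.999). The mean of both rows gave -0.38, so that no direction can be given for Top2a.

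Condensin, the ring complex that compacts mitotic chromosomes, had lower means in CSA for the 5 subunit genes of the set, with a median difference of -0.14. Of the subunit genes of condensin II outside the set, Ncapd3 and Ncaph2 had higher means in CSA, with differences of 0.17 ± 0.27 and 0.24 ± 0.19, and Ncapg2 differed by -0.07 ± 0.47. Ncapg, of the condensin I complex, was the clearest, at -0.51 and -0.57 on the CSA arrays, against 0.24 and 0.05 on the vehicle arrays. Both CSA arrays were below the baseline and both vehicle arrays above it. The difference was -0.68 ± 0.17 (95% interval -1.14 to -0.22), and -0.77 to -0.59 with 1 array left out. Ncapd2 of the same complex differed by -0.33 ± 0.23, with vehicle replicate 2 just below CSA replicate 2. Ncaph, the ring-closing subunit of condensin I, and Smc4, the partner of Smc2, differed by -0.11 ± 0.31 and -0.14 ± 0.18, and Smc2 by -0.11 ± 0.82, all with overlapping groups.

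For Smc2 the arrays parted by replicate number and not by group. Replicate 1 was far below the baseline in both groups, and replicate 2 close to it. Its difference turned to 0.64 without CSA replicate 1 and to 0.77 without vehicle replicate 2.

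All 3 genes of cytokinesis had lower means in CSA. Ect2, the exchange factor that activates RhoA at the cell equator, stood at -0.63 and -0.39 on the CSA arrays, against -0.06 and 0.06 on the vehicle arrays. The groups lay apart, and the difference was -0.51 ± 0.18 (95% interval -1.01 to -0.02). Anln differed by -0.33 ± 0.28, by -0.07 without CSA replicate 2 and by -0.13 without vehicle replicate 1. Racgap1, the partner of Ect2 in the central spindle, differed by -0.18 ± 0.25 and by 0.11 without vehicle replicate 1.

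Pttg1 was the gene of the set with the highest difference in the other direction. It encodes securin, which holds separase inactive until anaphase. It stood at -0.57 and 0.18 on the CSA arrays, against -1.37 and -1.09 on the vehicle arrays. Both vehicle arrays lay far below the baseline and both CSA arrays above them, 1 on each side of 0. The difference was 1.04 ± 0.32 (95% interval 0.17 to 1.91), a 2.05-fold higher level in CSA on a log2 scale, and 98.8% of all genes had a lower or equal difference. It was 0.66 to 1.41 with 1 array left out.

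Securin and the genes that act with it at the exit from mitosis had means higher in CSA in 4 of 5 cases, with a median difference of 0.12. Ube2c, the conjugating enzyme of the anaphase promoting complex, stood at -0.22 and -0.79 on the CSA arrays, against -0.88 and -0.80 on the vehicle arrays. CSA replicate 2 lay only just above the vehicle arrays, and the difference was 0.33 ± 0.25. Cdc20, the activator of the complex, stood at -0.61 and -1.12 on the CSA arrays, against 0.01 and -1.0 on the vehicle arrays, so that vehicle replicate 1 was at the baseline and the other 3 arrays below it. Its difference of -0.37 ± 0.42 was 0.13 without vehicle replicate 1. Espl1, which encodes separase, and Sgo1, which guards centromeric cohesion, differed by 0.09 ± 0.19 and 0.12 ± 0.17, with overlapping groups.

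For each of the 5 other mitotic kinases the 95% interval of the difference held 0. Plk1, polo-like kinase 1, was below the baseline on all 4 arrays at -0.09 and -0.24 on the CSA arrays, against -0.26 and -0.19 on the vehicle arrays. It differed by 0.07 ± 0.16 (95% interval -0.38 to 0.51). Plk4, which licenses centriole duplication, was lower still, at -0.11 and -0.76 under CSA, against -1.01 and -0.56 under vehicle, and differed by 0.36 ± 0.31, or 0.03 without CSA replicate 1. Aurka, the kinase of spindle poles, and Melk, a kinase of proliferating cells, were lower on both CSA arrays, with differences of -0.12 ± 0.16 and -0.28 ± 0.22. For Melk vehicle replicate 1 alone was well above the rest, and without it the difference was -0.06. Nek2, which splits the centrosomes, differed by -0.13 ± 0.19.

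In the spindle assembly checkpoint, which holds anaphase back until every kinetochore is attached, the groups overlapped for all 5 genes and the median difference was 0.06. Overlap was the usual state, found in 14693 of all 19935 genes, so it sets these few genes apart from no others. Bub1b, of the BubR1 part of the checkpoint complex, and Bub1, a kinase at unattached kinetochores, had lower means in CSA, with differences of -0.23 ± 0.30 and -0.15 ± 0.23. Bub3, the partner of both, Mad2l1 and Ttk, of the kinase Mps1 that starts the signal, had higher ones, with differences of 0.27 ± 0.36, 0.21 ± 0.43 and 0.06 ± 0.20. Mad2l1, of the Mad2 protein that binds Cdc20, stood at -0.44 and -0.09 under CSA, against -1.02 and 0.09 under vehicle, with vehicle replicate 1 far below the others.

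The chromosomal passenger complex had a median difference of 0.03, and all 4 genes overlapped between the groups, as did 14693 of all 19935 genes. Aurkb, its kinase, stood at -0.22 and -0.58 on the CSA arrays, against 0.12 and -0.38 on the vehicle arrays, and only vehicle replicate 1 was above the baseline. Its difference was -0.27 ± 0.26 (95% interval -0.99 to 0.45), and -0.02 without vehicle replicate 1. The scaffold gene Incenp, the survivin gene Birc5 and the borealin gene Cdca8 were below the baseline on every array. They differed by 0.14 ± 0.19, 0.09 ± 0.18 and -0.03 ± 0.21.

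Centromere and kinetochore genes had lower means in CSA in 6 of 8 cases and a median difference of -0.15. Cenpf, a large protein of the outer kinetochore, was the one with the closest replicates, at -0.42 and -0.42 on the CSA arrays, against -0.08 and -0.06 on the vehicle arrays. The arrays of each group nearly coincided, and the difference was -0.35 ± 0.15, between -0.36 and -0.34 with 1 array left out. Ndc80, of the microtubule-binding complex named after it, Cenpk, of the inner kinetochore, and the motor gene Cenpe were also lower without overlap, with differences of -0.30 ± 0.19, -0.28 ± 0.22 and -0.19 ± 0.16. Spc25, a partner of Ndc80 in that complex, was higher without overlap, by 0.24 ± 0.18. Nuf2, of the same complex, Cenpi, of the inner kinetochore, and Cenpa, the histone variant of centromeres, differed by -0.10 ± 0.17, 0.02 ± 0.17 and -0.11 ± 0.26, with overlapping groups.

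Of the 9 kinesin genes 7 had lower means in CSA, and the median difference was -0.12. Kif11, whose motor pushes the spindle poles apart, stood at -0.25 and -0.53 on the CSA arrays, against -0.05 and 0.05 on the vehicle arrays. The groups did not overlap, and the difference was -0.39 ± 0.18 (95% interval -0.90 to 0.12). Kif20b and Kif23, motors of cytokinesis, were lower in the same manner, with differences of -0.31 ± 0.22 and -0.26 ± 0.20. Kif18a, which shortens kinetochore microtubules, had the highest difference of the group at 0.30 ± 0.27, or 0.01 without vehicle replicate 1. The remaining Kif2c, Kif4, Kif15, Kif20a and Kif22 differed by between -0.19 and 0.07, with overlapping groups.

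The transcription factors that turn on the set did not separate the groups. Foxm1 stood at -0.48 and 0.27 on the CSA arrays, against -0.0036 and -0.26 on the vehicle arrays, with the CSA arrays on either side of vehicle, and differed by 0.03 ± 0.32 (95% interval -0.84 to 0.89). Mybl2, which encodes B-Myb, stood at -0.16 and -0.08 on the CSA arrays, against 0.37 and -0.24 on the vehicle arrays, with vehicle replicate 1 alone high. Its difference of -0.19 ± 0.26 was 0.11 without that array.

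**Figure D4:**
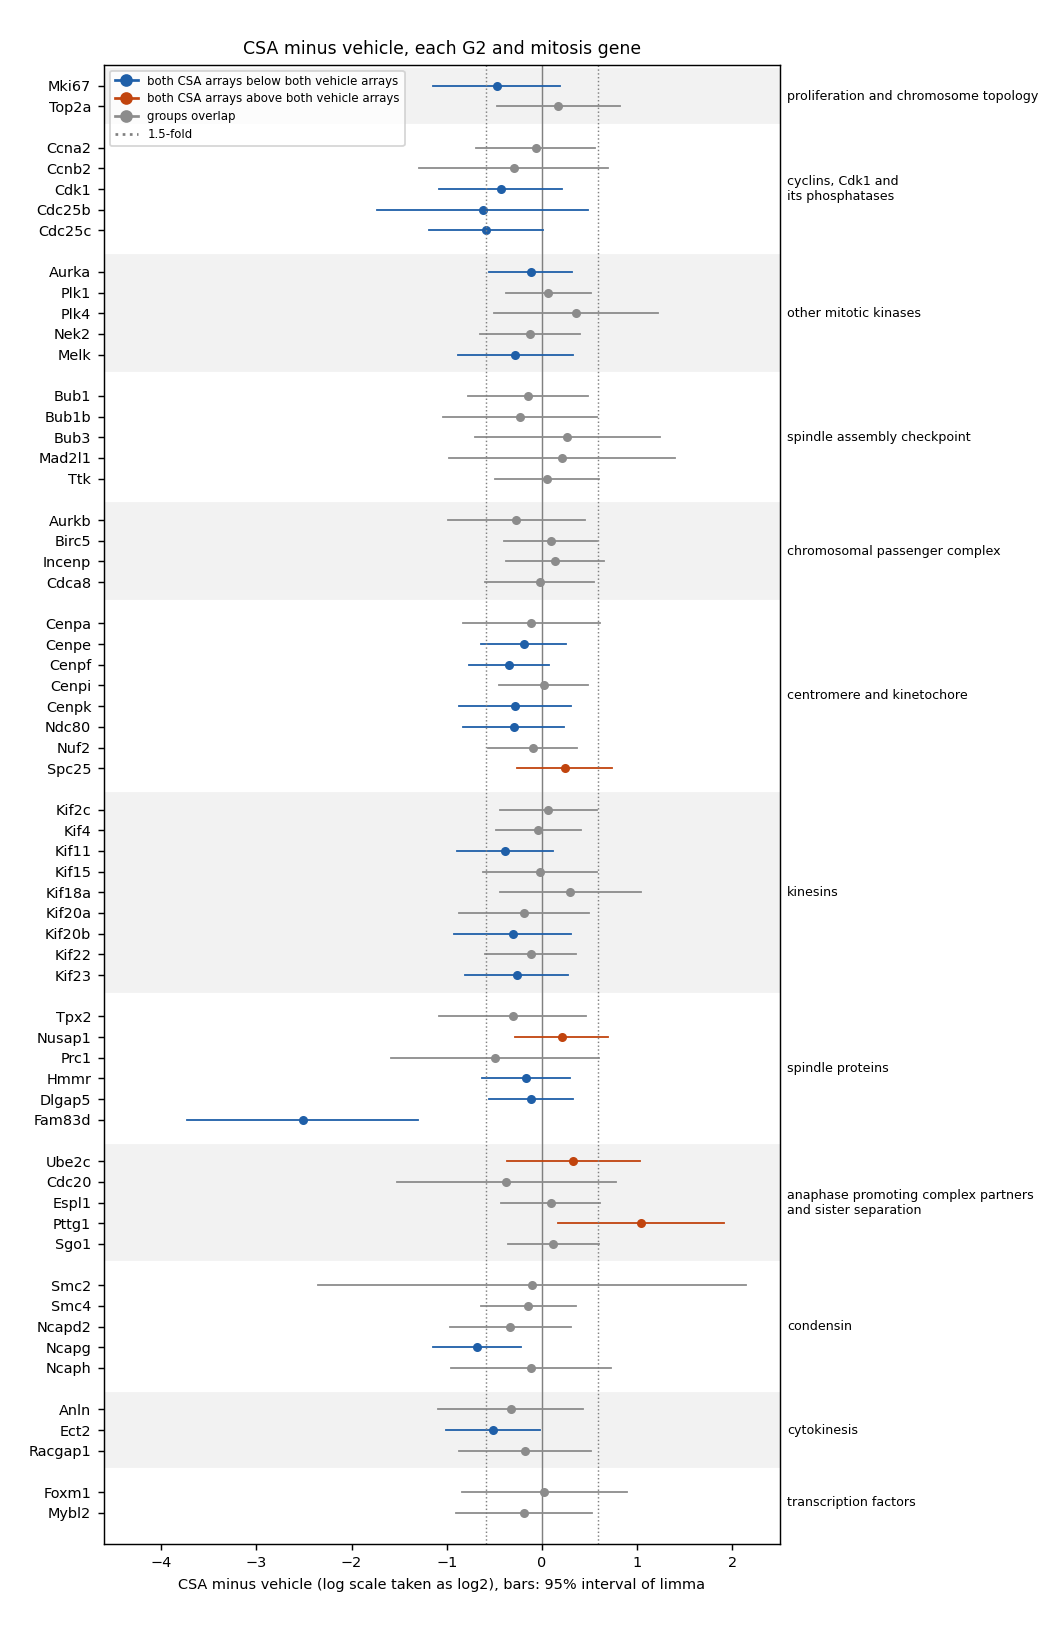
Difference CSA minus vehicle of each of the 59 genes (points, x axis, log2) with its 95% interval from limma (bars), grouped by role, coloured by whether the 2 CSA arrays lay below, above or among the 2 vehicle arrays, with dotted lines at 1.5-fold. Fam83d, Ncapg, Ect2 and Pttg1 are the genes whose interval does not reach 0.

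Genes with and without the CHR core in their promoter overlapped widely in their array values. The median difference was -0.18 over the 33 genes with TTTGAA, with a range of -2.51 to 0.33, and -0.10 over the 17 without it, with a range of -0.62 to 1.04. Means were lower in CSA for 25 of the 33 and for 9 of the 17. Below the baseline on all 4 arrays were 10 of the 33 and 4 of the 17. These are descriptions of the 50 genes with a promoter in the table, without a test.

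Other genes of the pathway came from lists of 114 genes outside the set, of which 109 were measured. Of these limma called 0, and 2 were at an unadjusted p under 0.05 (1.83%, against 2.83% of all genes). Means were lower in CSA for 59 of the 109 (54.1%, against 58.9% of all genes), and the median difference was -0.01 (all genes -0.04). The sign of that median turned with arrays centred on their medians (0.02). Below the baseline on all 4 arrays were 20 of the 109 (18.3%, against 3.35% of all genes).

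Within these lists, 40 of 65 further mitosis genes had lower means in CSA (61.5%, against 58.9% of all genes), with a median of -0.07. Cenpq, of the inner kinetochore, was higher in CSA by 0.87 ± 0.24 and Zwint, of the outer kinetochore, by 0.91 ± 0.34. Tubg1, of gamma-tubulin, and Trip13, a remodeller of checkpoint proteins, were lower, with differences of -0.98 ± 0.40 and -0.88 ± 0.38. None of these passed the limma test over all genes (adjusted p = 0.999 each). Of the 65 further mitosis genes 19 were below the baseline on all 4 arrays (29.2%, beside 28.8% of the set), and the remaining 1 of the 20 genes below it was a regulator.

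The subunits and regulators of the anaphase promoting complex were split evenly, 7 lower and 7 higher. Cdc16 and Cdc26, both subunits, differed by 0.67 ± 0.30 and 0.92 ± 0.73, with overlapping groups for Cdc26. Cdc27, a subunit that binds the activators, and Fbxo5, an inhibitor of the complex, differed by -0.37 ± 0.24 and -0.74 ± 0.43. Of the 12 cohesin genes 9 had higher means in CSA (median 0.09). The acetyltransferase gene Esco1, the ring subunit gene Smc3 and the release factor gene Wapl differed by 0.57 ± 0.31, 0.26 ± 0.29 and 0.33 ± 0.39, and the subunit gene Stag2 by -0.38 ± 0.21. In both of these lists 0 genes were below the baseline on all 4 arrays.

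Among 18 measured regulators of the G2 and mitosis program, 9 were lower and 9 higher in CSA, with a median of -0.01. Lin54, the MuvB subunit that binds the CHR, stood at 0.20 and -0.01 on the CSA arrays, against -0.66 and -0.90 on the vehicle arrays. Both vehicle arrays were well below both CSA arrays, and the difference was 0.87 ± 0.19 (limma adjusted p = 0.999, unadjusted p = 0.0095). Lin37, another MuvB subunit, was higher by 0.34 ± 0.21 without overlap. The MuvB genes did not move together. Lin9 was lower in CSA without overlap, with a difference of -0.22 ± 0.17. Lin52 and Rbbp4 differed by 0.27 ± 0.34 and 0.20 ± 0.19, with overlapping groups. Of the NF-Y subunits, Nfya differed by -0.48 ± 0.30 and Nfyb by 1.87 ± 1.17. Nfyb rested on vehicle replicate 1, which stood at -3.25 while the other 3 arrays lay between -0.03 and 0.54.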

How the data were processed

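RNA of 4 samples, 2 per group, was hybridised to one-colour arrays. The labels' protocols state that 20 ng of total RNA was amplified in 1 round and biotin-labelled. The deposited values are log values, taken as log2 from their range, centred by the authors on an unnamed baseline per row. The array software and any normalization step are not stated in the sources used; the submitters' processing notes name only the build mm8. Groups and replicate numbers came from the sample titles. No signal over background was available.

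Of 28815 rows, 21780 named 1 gene, 1605 named several and 5430 were unlisted. Of 19935 genes, 998 had more than 1 row, and the row with the highest mean was used. Groups were compared with limma 3.58.1 in R 4.3.3 (lmFit, eBayes without trend, no filter, two-sided, Benjamini-Hochberg over all genes, threshold 0.05, prior degrees of freedom 2.13). A run on simulated arrays with independent noise was required only to return mean differences near the true ones. Whether samples came from separate animals is known only from the word biological in the design text. Array values of a gene were named in full for genes 1.5-fold apart without overlap, the 3 highest and 3 lowest means, 8 measured fixed genes and the extremes of each role; of other lists up to 4 by absolute moderated t. Array values of further genes were added after their values were seen. Alternatives were quantile normalization, centred arrays, averaged rows, a filter on the mean, a trend, a replicate block and each array left out. The genes and lists were chosen with earlier results of these data known. Gene names came from the platform annotation, updated through RefSeq, and promoters from RefSeq GRCm38.p6.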

Additional observations from a re-analysis of the deposited data

How the results depend on the processing

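No setting changed a call: limma called 0 of the 59 genes under each alternative, and 0 with the replicate number as a block (replicate block; 5 genes of the set and 914 of all 19935 at an unadjusted p under 0.05, against 4 and 565 without it). The deviations of same-numbered samples from their group means had a Pearson r of 0.236 over all genes, a hint that does not establish a pairing, and the block changes neither differences nor overlaps. With arrays centred on their medians 2 genes were at least 1.5-fold lower without overlap, the median difference was -0.10 and that of the other pathway genes turned to 0.0241. A filter on the mean at the 25th percentile left 7 of the 59 genes, with 2 lower and 0 higher (1.68% and 2.64% of all genes). Their median was -0.19 (all genes -0.05), and that of the other pathway genes turned to 0.0775. The filter takes the mean of both groups relative to the baseline and not abundance. The 2 lower genes, Fam83d and Cdc25b, passed it only through vehicle. Their means were 1.94 and 0.32 in vehicle, against -0.58 and -0.30 in CSA. These counts and this median are therefore no support for a lower level in CSA. The mean of both rows turned Top2a to -0.38, and its other row alone, an alternative chosen after seeing the data, to -0.93.

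With 1 array left out, 4 to 7 genes were lower and 1 to 4 higher by that rule, the median difference lay between -0.15 and -0.0832, that of the other pathway genes between -0.0557 and 0.0072, and 20 to 32 genes were below the baseline (chosen after seeing the data). The sign turned for Top2a (-0.0593 to 0.40), Plk1 (-0.0088 to 0.14), Smc2 (-0.99 to 0.77), Ccna2 (-0.25 to 0.12), Bub1b (-0.57 to 0.10), Bub3 (-0.0643 to 0.60), Foxm1 (-0.35 to 0.40), Cdc20 (-0.88 to 0.13), Racgap1 (-0.46 to 0.11) and Mybl2 (-0.49 to 0.11). The other 19 of the 29 genes named by rule kept their direction under every alternative that could be computed for them. Most of the 19 had groups that do not overlap, and leaving out 1 array cannot turn the sign of such a gene. The trend and the block leave every difference as it is, and averaging rows alters only genes with more than 1 row. For most of the 19 the kept direction is therefore little support. The cause of the changes under these settings was not tested, beyond the smaller number of genes or arrays. Values near the baseline have no measure of signal over background, which limits what a small difference can show.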
